A study of Mus musculus with 53 samples.

Results

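Chromatin bound by biotin-tagged Tbx3 in mouse embryonic stem cells was mapped to 3078 sites of the mm9 genome build. Of these, 1019 (33.1%) lay more than 1 kb and at most 20 kb from the nearest start of a protein-coding gene. The distance was taken from the edge of the peak interval to the nearest coding gene start of GENCODE vM1, an annotation of the same build. Another 592 sites (19.2%) lay within 1 kb of such a start and 1467 (47.7%) lay beyond 20 kb. The 1019 intermediate sites had 890 genes as their nearest coding start, which is 4.01% of 22208 coding gene names.

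All cells were R1 mouse embryonic stem cells grown in serum and LIF without feeders. Streptavidin beads pulled down the Flag- and biotin-tagged Tbx3 (bfTbx3) from Tbx3 N/N cells, whose genotype is labelled -/-, that also carried the biotin ligase BirA. The tagged protein was therefore put back into cells without intact Tbx3, and no source used here gives its amount relative to the natural protein. A pull-down from N/N cells with BirA alone served as the control, and no file of its own was analysed here. RNA was sequenced from 5 populations with 1 library each. They were cells with intact Tbx3 (+/+), with 1 targeted allele (+/N, labelled heterozygous), with both targeted (N/N, labelled null), and otherwise wild-type cells with a hairpin against luciferase (shLuc) or against Tbx3 (shTbx3). A further 45 single cells were sorted as SSEA1+ and DAPI-, that is, positive for a surface antigen of stem cells and not stained by a dye that enters dead cells. Which stretch of Tbx3 the targeting removed is not stated in the labels. With 1 library per group, no difference below has a replicate check and no p-value is given.

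Tbx3 belongs to the T-box family, transcription factors that share a DNA-binding domain and recognise a short conserved sequence. In mouse embryonic stem cells it is one of the factors tied to the naive pluripotent state, in which Oct4 (the product of Pou5f1), Sox2, Esrrb, Klf factors and the LIF receptor pathway also act. Sites some distance from a gene start often lie in enhancers, stretches of DNA that bind many factors at once and act on a gene from upstream, from an intron or from beyond its end. A nearest gene is an address and not a target: the peak list does not say which gene, if any, a site acts on.

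The stretches below show the sequence inside sites that recur in the results, from the plus strand of mm9 (NCBIM37). Capitals mark exact matches to a searched element on either strand, with 30 bases on each side in lower case. The T-box core was searched as GGTGTGA, or TCACACC on the other strand. The first set is shown because these sites are among the higher-scoring ones with a T-box core, all in introns or between genes: Tet3 and Tet1 encode enzymes that oxidise methylated cytosine, Scarb2 a lysosomal membrane protein, Il6st the gp130 subunit of the LIF receptor, and Fgfr2 a fibroblast growth factor receptor. The Nanog stretch, from a site of low score, is shown for the pluripotency factor it lies next to.
Tet3 T-box core, chr6:83371828-83371894: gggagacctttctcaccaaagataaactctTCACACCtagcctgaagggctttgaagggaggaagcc
Scarb2 T-box core, chr5:92927524-92927590: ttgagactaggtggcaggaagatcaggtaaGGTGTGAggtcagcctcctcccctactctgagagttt
Il6st T-box core, chr13:113252847-113252913: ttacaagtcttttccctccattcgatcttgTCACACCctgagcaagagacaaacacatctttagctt
Fgfr2 T-box core, chr7:140306992-140307058: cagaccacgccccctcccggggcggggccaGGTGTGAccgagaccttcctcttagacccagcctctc
Tet1 T-box core, chr10:62359870-62359936: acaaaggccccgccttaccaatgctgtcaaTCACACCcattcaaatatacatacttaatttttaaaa
Nanog T-box core, chr6:122652507-122652573: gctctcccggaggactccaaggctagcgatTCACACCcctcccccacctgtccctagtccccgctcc

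The next set holds the elements of other stem cell factors and is shown because these sites belong to genes described below: the pluripotency genes Dppa3, Il6st, Sox2, Pou5f1 and Utf1, and also B3gnt7, Mcl1 and Id3. The octamer ATTTGCAT (other strand ATGCAAAT) is read by Oct4, and TTGTNATGC (other strand GCATNACAA) is a short form of the joint element of Oct4 and Sox2, called Oct-Sox here. The Esrrb element was CAAGGTCA (other strand TGACCTTG). The Dppa3 site carries 2 octamers in the same orientation, and the site of Il6st carries an octamer as well as the T-box core above.
Dppa3 octamer, chr6:122574625-122574736: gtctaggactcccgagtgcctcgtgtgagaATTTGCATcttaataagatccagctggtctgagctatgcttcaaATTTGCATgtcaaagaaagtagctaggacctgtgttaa
Il6st octamer, chr13:113252746-113252813: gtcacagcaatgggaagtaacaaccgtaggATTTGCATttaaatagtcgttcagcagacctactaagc
B3gnt7 octamer, chr1:88207643-88207710: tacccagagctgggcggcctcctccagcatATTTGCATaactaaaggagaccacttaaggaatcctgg
Sox2 Oct-Sox, chr3:34552943-34553011: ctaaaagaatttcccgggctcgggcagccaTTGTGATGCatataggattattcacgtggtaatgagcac
Pou5f1 Oct-Sox, chr17:35640968-35641036: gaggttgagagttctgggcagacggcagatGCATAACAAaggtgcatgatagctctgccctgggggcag
Utf1 Oct-Sox, chr7:147131554-147131622: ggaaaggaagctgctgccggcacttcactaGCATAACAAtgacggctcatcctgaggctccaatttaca
Mcl1 Oct-Sox, chr3:95467521-95467589: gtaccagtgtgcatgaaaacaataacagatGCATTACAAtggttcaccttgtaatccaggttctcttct
Id3 Esrrb, chr4:135703048-135703115: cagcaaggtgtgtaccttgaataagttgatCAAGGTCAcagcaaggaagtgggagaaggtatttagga

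The sites with the highest and the second-highest score held no T-box core, octamer, Oct-Sox or Esrrb element anywhere in their intervals. The central 101 bases of each are shown without capitals for that reason.
Sars centre, chr3:108236491-108236591: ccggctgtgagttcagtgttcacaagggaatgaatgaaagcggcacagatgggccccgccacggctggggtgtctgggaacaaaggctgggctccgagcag
Klf9 centre, chr19:23207919-23208019: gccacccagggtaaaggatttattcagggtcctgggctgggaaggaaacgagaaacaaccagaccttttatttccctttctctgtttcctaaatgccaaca

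The scores of the 1019 sites, the deposited peak scores without a unit, ran from 50.01 to 723, with quartiles of 59.5, 79.3 and 121. A score of 100 or more was held by 359 of them (35.2%). Sites beyond 20 kb had nearly the same scores (median 78.8, 35.5% at 100 or more). Sites within 1 kb were lower, with a median of 69.7 and 23.7% at 100 or more. Of the 100 highest scores in the whole list, 37 belonged to sites 1 to 20 kb away, 48 to sites beyond 20 kb and 15 to sites within 1 kb. The intervals were 165 to 1365 bp wide, with a median of 520 bp. Wider sites tended to score higher (Spearman rho 0.352 across the 1019 sites, which share 1 library), so scores and element counts are not independent of width. The X chromosome held 29 of the sites, beside 28 on chromosome 18. These were 50% of all Tbx3 sites on X, or 3.11 per 100 of its coding genes.

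The 10 highest scores were spread over genes of unrelated function. A site in an intron of Sars, which encodes seryl-tRNA synthetase, scored 723 (chr3:108236287-108236796, 11331 bp downstream of the start). Klf9, a Kruppel-like transcription factor, had a site of 675 lying 7151 bp upstream (chr19:23207374-23208565). B3gnt7, an enzyme that extends glycan chains, had one of 615 lying 7519 bp downstream (chr1:88207315-88207980). The steroid dehydrogenase gene Hsd17b14 (608, 2897 bp upstream) and the homeobox gene Hoxb13 (572, 3573 bp upstream) followed. The Hsd17b14 site lay in an intron of another coding gene, 694 bp from another transcript start of a coding gene. The phosphodiesterase gene Pde1b had the 1 site of the 10 whose centre lay in a coding exon (544). The list ended with the imprinted zinc finger gene Peg3 (534, 1320 bp downstream in an intron), the helicase gene Eif4a2 (518, 7160 bp upstream), the actin regulator gene Enah (514, 10098 bp upstream) and Id3, an inhibitor of basic helix-loop-helix factors (489, 3099 bp downstream).

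Of these 10 genes, 9 were in the bulk table. Sars stood at 36.6, 41.4, 50.4, 66.6 and 61.4 FPKM (a level per transcript length and per library) in +/+, +/N, N/N, shLuc and shTbx3, in that order. Every library listed it, the hairpin pair above the 3 allele libraries. Hsd17b14 stood at 64.3, 61.7, 63.8, 55.6 and 66.3 FPKM in the same order, a narrow range. Pde1b was lower, at 8.08 to 11.1 FPKM. Hoxb13 was absent from the bulk table and listed at 0 in all 45 single cells, although its site ranked 12 of 3078. At the other end, Eif4a2 stood at 97.0, 119, 137, 174 and 128 FPKM, so sites of similar score lay beside genes of very different level.

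Sites were almost evenly split between the sides of the gene start. Upstream lay 514 (50.4%, exact Clopper-Pearson 95% interval 47.3 to 53.6, counting error only) and downstream 505 (49.6%). Downstream bases were the more common background, with 53.4% of the genome bases in this distance range against 46.6% upstream. Per Mb of such bases there were 1.86 sites upstream and 1.59 downstream. The denser side was upstream in each distance bin: 2.09 and 1.99 sites per Mb at 1 to 2 kb, 2.06 and 1.51 at 2 to 5 kb, 2.15 and 1.82 at 5 to 10 kb, and 1.53 and 1.43 at 10 to 20 kb. Median scores of the sides were alike over the whole range (79.9 upstream, 78.5 downstream). The bin at 1 to 2 kb differed, with 98.3 over 42 upstream sites and 69.97 over 42 downstream sites. These counts describe 1 peak list, and sites of 1 gene are not independent.

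Sites were densest close to coding starts. Within 1 kb of coding starts there were 14.0 sites per Mb, between 1 and 20 kb 1.72, and beyond 20 kb 0.764. Inside the range the bins held 2.04, 1.77, 1.98 and 1.48 sites per Mb with increasing distance, from 84, 208, 337 and 390 sites. Just inside the 1 kb limit lay the sites of the acetyltransferase gene Myst2 (1006 bp, score 209), Rif1 (1012 bp, 198) and Phip (1013 bp, 65.7), and just outside it those of Rad23b (998 bp, 91.4), Actn4 (992 bp, 77.8) and X99384 (989 bp, 73.1). Just inside the 20 kb limit lay those of Trim71 (19989 bp, 400.5), Erlin1 (19973 bp, 70.2) and Tex2 (19906 bp, 65.3), and just outside it those of Gjb1 (20006 bp, 210.4), Cxcl17 (20051 bp, 71.7) and Alg13 (20065 bp, 80.9).

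**Figure D1:**
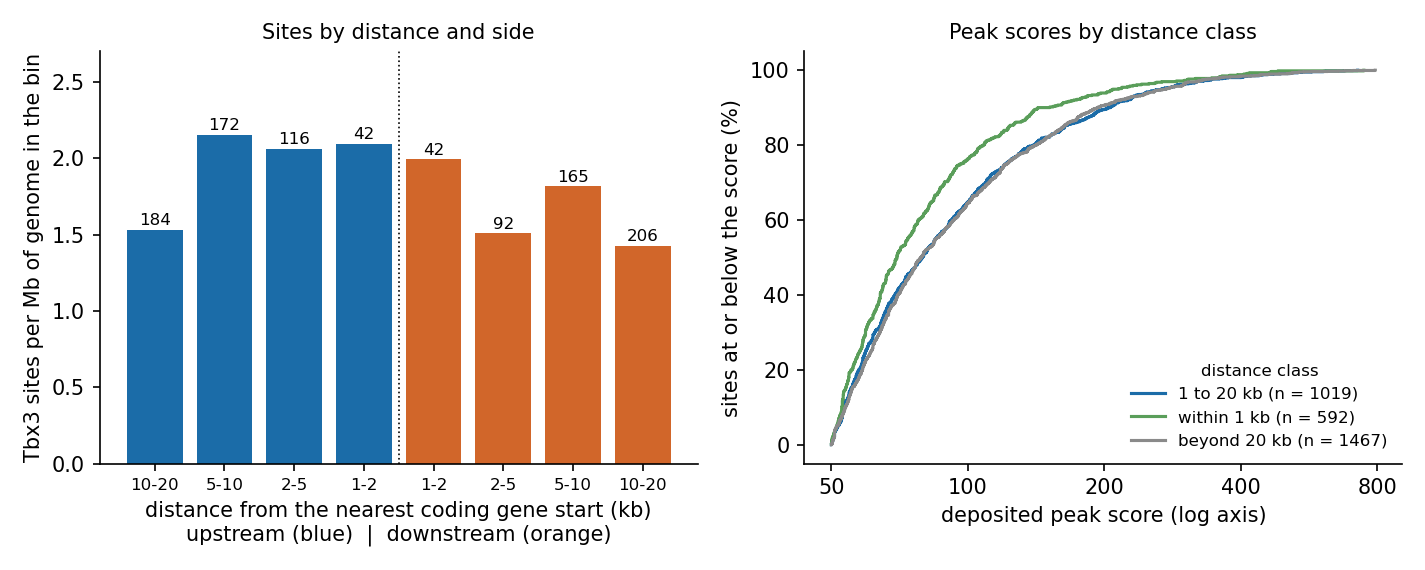
Left, Tbx3 sites per Mb of genome (vertical axis) in bins of distance from the nearest coding gene start (horizontal axis, kb), upstream in blue and downstream in orange, with the number of sites above each bar. Right, cumulative share of sites (vertical axis, %) at or below each deposited score (log axis) for the 3 distance classes. Each upstream bar is at least as tall as the downstream bar of its bin, and the curve of the 1 to 20 kb sites runs with that of the sites beyond 20 kb, to the right of the sites within 1 kb.

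Most sites had their centre outside exons. Placed by the centre base on the annotation of coding genes, 553 (54.3%) were between genes, 413 (40.5%) in introns and 53 (5.20%) in an exon. A site centred elsewhere can still reach into an exon. The bases of the same distance range were 49.6%, 44.1% and 6.36%, so the sites were placed close to the make-up of the range. The body of the assigned gene held 377 sites (37.0%), of which 244 were in its first intron, and 89 lay only in another coding gene. Median scores were 79.7 between genes, 80.04 in introns and 66.6 in exons. Not all were far from every start: 71 lay within 1 kb of another transcript start of a coding gene and 37 within 1 kb of the start of a noncoding gene. With both kinds left out, 917 (90.0%) remained above 1 kb from these starts. Other transcript starts of noncoding genes were not checked.

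In base composition the sites resembled distal sites more than promoter sites. Their median GC content was 48.97%, against 48.1% beyond 20 kb, 62.5% within 1 kb, and 45.8% in flanks of the same width taken 2 kb to each side. The observed over expected ratio of CpG, the dinucleotide that is methylated in vertebrate genomes and depleted outside CpG islands, had a median of 0.218. It was 0.202 beyond 20 kb and 0.770 within 1 kb.

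The T-box core occurred in 145 of the 1019 sites (14.2%, exact interval 12.1 to 16.5) and in 154 of 2038 flanks (7.56%, 6.45 to 8.79). The share was 14.5% in sites beyond 20 kb and 9.97% in sites within 1 kb, and these differences were not tested. The extended form AGGTGTGA (other strand TCACACCT), which contains the core, was in 6.77% of the sites and 2.40% of the flanks. Matches gathered at the centre: there were 0.446 core matches per kb within 100 bp of a site's centre, 0.226 between 100 and 200 bp, and 0.108 to 0.162 further out to 1000 bp. Repeats added little, since 143 of the 145 sites kept a core whose 25-base context occurs fewer than 10 times in the genome. The flanks then stood at 7.26%. The median score was 77.5 with it and 79.7 without it.

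Elements of other stem cell factors were also more frequent in the sites than in the flanks. The octamer was in 8.44% of sites and 2.40% of flanks, Oct-Sox in 5.79% and 1.42%, and the Esrrb element in 12.3% and 4.37%. The Klf element GGGTGTGG (other strand CCACACCC) was in 11.97% and 5.45%, and the GC box GGGCGGG (other strand CCCGCCC), read by Sp and Klf factors, in 14.7% and 6.82%. The Sox element CATTGTT (other strand AACAATG) was in 12.7% and 8.39%, and the Tead element GGAATG (other strand CATTCC), the most common in both, in 32.3% and 24.4%. The palindromic E-box CACGTG (9.22% and 7.46%), the Stat element TTCCNGGAA (2.45% and 1.52%) and the Tcf element CTTTGAT (other strand ATCAAAG, 9.03% and 7.95%) differed from their flanks by fewer percentage points than the others. The Stat element is rare, which keeps its points small. It had 14 matches within 100 bp of the centres (0.0687 per kb), against 0.0196 to 0.0491 per kb further out to 1000 bp. The octamer can share bases with Oct-Sox, and Oct-Sox with the Sox element, so these shares do not add up. Of the 59 sites with Oct-Sox, 12 had it only in a context found 10 or more times in the genome.

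Against promoter sites the make-up differed most in the GC box, which was in 61.5% of sites within 1 kb and in 10.9% of those beyond 20 kb. The Oct-Sox element went the other way, with 2.03% within 1 kb and 6.27% beyond 20 kb. Scores were higher where some elements were present. The median was 96.9 for the 86 sites with an octamer and 78.4 without, and 90.9 for the 125 sites with the Esrrb element and 78.5 without. The sites with the Esrrb element were also wider (median 570 bp against 511 bp), and the part of width in this was not tested. A T-box core and an octamer stood together in 8 sites, among them that of Il6st printed above. No T-box core, octamer, Oct-Sox, Esrrb or Klf element was found in 574 sites (56.3%). A match is a string of letters and not a bound site, and its absence says only that these letters are not in the interval.

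**Figure D2:**
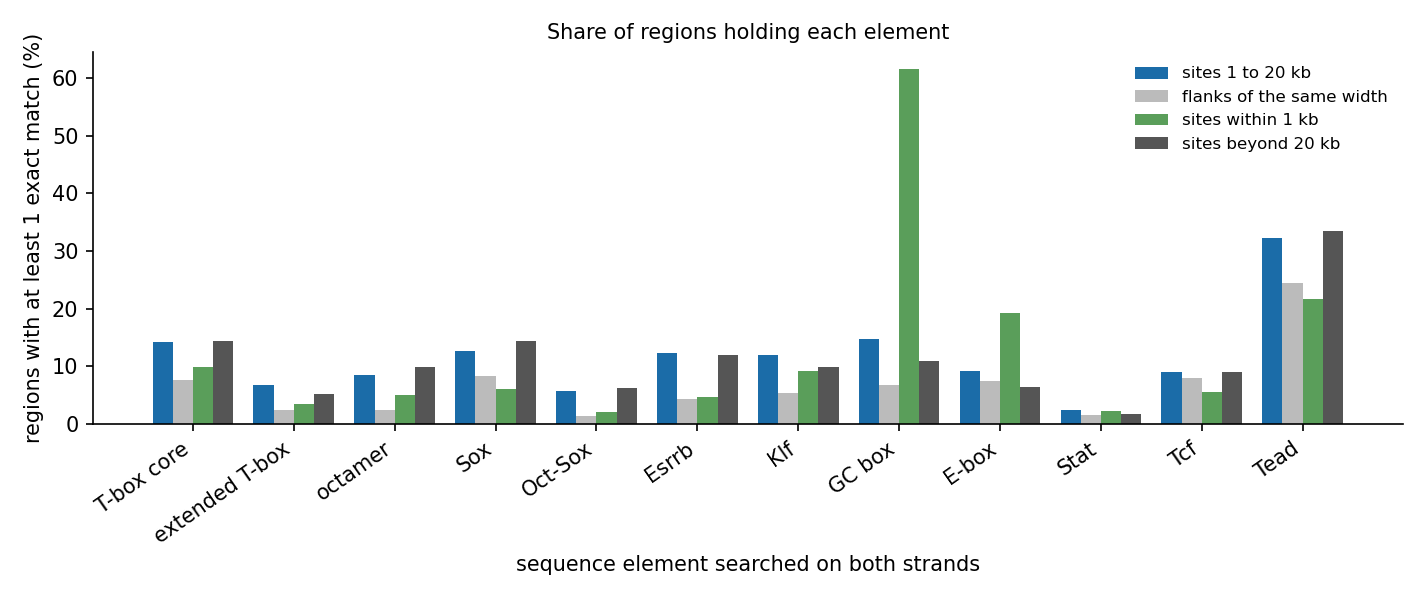
Share of regions with at least 1 exact match on either strand (vertical axis, %) for 12 sequence elements (horizontal axis), in sites 1 to 20 kb from a coding start, in flanks of the same width 2 kb away, in sites within 1 kb and in sites beyond 20 kb. The blue and dark grey bars run close together, and the GC box stands at 61.5% in sites within 1 kb.

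**Figure D3:**
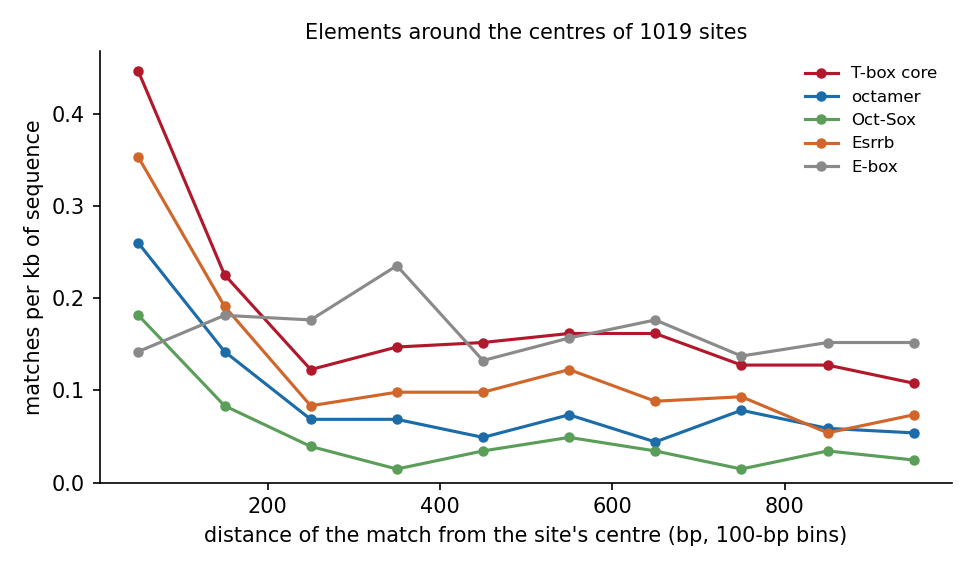
Matches per kb (vertical axis) by distance from the centre of the 1019 sites (horizontal axis, bp, both sides added, 100-bp bins) for 5 elements. The T-box core, Esrrb, octamer and Oct-Sox lines are highest in the first bin, the T-box core at 0.446 per kb, and the E-box line is not (0.142).

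Most genes were nearest to a single site. Of the 890 genes, 778 had 1 site, 99 had 2, 9 had 3 and 4 had 4, so 112 genes with several held 241 sites (23.7%). All sites of a gene lay on 1 side of its start in 75 of the 112. Neighbouring sites of a gene were a median of 5139 bp apart, and 25 of 129 gaps were under 1 kb. Another 61 of the 890 genes also had a site within 1 kb of their start. No gene with 3 or 4 sites did.

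The 4 genes with 4 sites were Mcl1, Tet1, A4galt and Sox2. Mcl1 encodes a member of the Bcl2 family that keeps cells from apoptosis. Its sites lay 12871, 6938 and 4733 bp upstream with scores of 225, 92.7 and 97.2, and 4653 bp downstream with a score of 369. That last site (chr3:95467296-95468129) held the Oct-Sox element printed above and the Esrrb element. Tet1, a methylcytosine dioxygenase expressed in embryonic stem cells, had all 4 in its introns on chromosome 10, at 1735, 3149, 5856 and 14729 bp downstream. Their scores were 229.6, 215, 62.2 and 164, and the sites at 1735 and 5856 bp held a T-box core.

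A4galt, which makes the globotriose glycolipid antigen, had 3 intronic sites at 3236, 7080 and 14620 bp downstream (scores 151, 128 and 206) and 1 upstream at 2915 bp (64.9). The intronic site nearest its start (chr15:83078578-83078968) held 2 T-box cores. Sox2, a core pluripotency factor, had 1 site 3361 bp upstream (120.4) and 3 beyond its short gene body, at 3855, 12728 and 18386 bp (51.4, 59.5 and 73.4). The site at 3855 bp (chr3:34552782-34553304) held Oct-Sox, Stat and E-box matches and ranked 2926 of 3078 by score. None of the 4 Sox2 sites held a T-box core.

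Sets of 3 sites belonged to Utf1, Cbfa2t2, Gm17671, Klf13, Zfp518b, Dmrt1, Ubtf, Ncoa3 and Uck2. Utf1 encodes a chromatin protein of undifferentiated stem cells, and its sites lay 1571, 5894 and 6543 bp downstream with scores of 151, 130.4 and 77.4. The nearest held Oct-Sox, Sox and Esrrb matches, of which the Oct-Sox and Sox matches share bases. Cbfa2t2, a transcriptional corepressor, had its 3 sites between 8018 and 9910 bp upstream (84.1, 152 and 75.4), and 2 of them held octamers. Klf13, Zfp518b and Ubtf also had all sites upstream. Dmrt1, a factor of gonad and germ cells, had 2 upstream and 1 in an intron.

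These genes were expressed in the stem cells. Of the 13 genes with 3 or 4 sites 12 were in the bulk table, and Gm17671 was not. Utf1 stood at 597, 564, 602, 314 and 443 FPKM in +/+, +/N, N/N, shLuc and shTbx3. Sox2 stood at 245, 213, 202, 212 and 247 FPKM in that order. Both were high in every library, and Utf1 was lower in the hairpin pair than in the 3 allele libraries.

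Mcl1 stood at 196, 204, 195, 122 and 95.8 FPKM, again lower in the hairpin pair. Tet1 stood at 31.1, 34.8, 29.99, 33.6 and 24.0 FPKM, with shTbx3 lowest. A4galt stood at 9.07, 10.0, 12.2, 6.94 and 8.54 FPKM. On the log2((a + 1)/(b + 1)) scale of FPKM none of the 12 reached 2-fold in any of the 4 comparisons made between libraries. At most 2.69% of all coding genes did so in either direction of a comparison, so 12 genes are too few to read this. Their differences in N/N against +/+ ran from -0.72 for Klf13 (15.4 and 8.98 FPKM in +/+ and N/N) to 0.97 for Dmrt1 (6.42 and 13.5). The Dmrt1 levels are past 2-fold without the added 1. In shTbx3 against shLuc they ran from -0.47 for Tet1 to 0.50 for Uck2, a kinase of pyrimidine salvage, and Utf1.

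**Figure D4:**
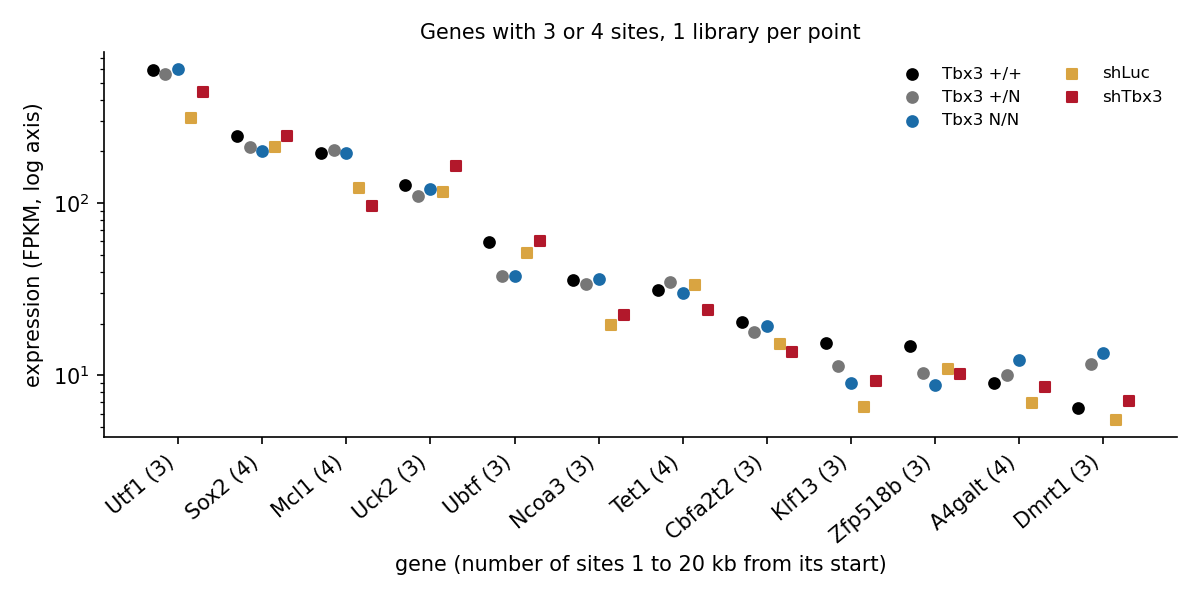
Expression (FPKM, log axis) of the 12 genes with 3 or 4 sites that are in the bulk table, with the number of sites in brackets. Each point is 1 library; circles are the allele libraries and squares the hairpin libraries. Utf1 is highest, at 314 to 602 FPKM. The ranges of several genes overlap, such as those of Tet1 (24.0 to 34.8 FPKM) and Ncoa3 (19.5 to 36.1 FPKM).

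Genes near these sites were listed and expressed more often than coding genes at large. The bulk table held 672 of the 890 (75.5%), against 49.9% of all coding genes, 47.0% of those without a site within 20 kb and 90.3% of those with a site within 1 kb. Their median in +/+ was 15.9 FPKM, against 9.74 for all listed coding genes, and the medians of the other libraries ran from 14.6 to 16.8. The median was 14.8 FPKM with 1 site, 22.99 with 2 and 33.4 with 3 or 4, and 39.2 for the 59 listed genes that also had a site within 1 kb. Genes with sites only upstream (16.3 FPKM) and only downstream (14.8 FPKM) were close. Of the 890, 48.99% reached 10 FPKM in +/+, against 24.6% of all coding genes.

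The depth behind the FPKM values is unknown. Tbx3 itself has no site in this distance range, but a site lay within 1 kb of its start. The Tbx3 level was 44.4, 22.5, 15.1, 13.8 and 5.09 FPKM in +/+, +/N, N/N, shLuc and shTbx3, so the N/N library still listed Tbx3 transcript. Stem cell markers were present in each library, with 6 of 7 listed and a summed level of 1111 to 2059 FPKM. The 4 listed B and antigen-presenting cell markers summed to 6.36 to 8.84 FPKM in 4 libraries and to 65.8 in shLuc. The 5 listed fibroblast markers summed to 166, 286, 256, 50.9 and 134 FPKM in +/+, +/N, N/N, shLuc and shTbx3, most of it Vim, with Postn at 0 in shLuc. The 4 endoderm markers summed to 12.9 FPKM in +/+ and to 2.06 to 4.39 in the others.

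In N/N against +/+, 669 of the 890 genes reached 1 FPKM in at least 1 of the 2 libraries. Of these 16 (2.39%) were at least 2-fold higher in N/N and 12 (1.79%) at least 2-fold lower. Over all 10947 coding genes tested the shares were 0.977% higher and 1.4% lower. The median difference was 0.01 near the sites and -0.03 over all genes. Of the genes with a site of score 100 or more, 11 of 259 (4.25%) were higher and 2 (0.772%) lower. These are shares of genes in 1 pair of libraries, and whether they differ beyond chance was not tested. In bulk RNA a smaller number of cells expressing a gene and less RNA per cell cannot be told apart.

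Dppa3, a maternal factor that protects methylation in the early embryo, had the largest difference among them. Its level was 5.32, 8.95, 24.7, 29.1 and 51.3 FPKM in +/+, +/N, N/N, shLuc and shTbx3, lowest in +/+ and highest in shTbx3. The control shLuc stood above N/N and far above +/+, the other library with intact Tbx3 alleles. The 1 site of Dppa3 lay 1400 bp upstream with a score of 411. The log2 difference of N/N against +/+ was 2.02. Tdrd12, a helicase of the germline piRNA pathway, had an intronic site of score 145, lying 6739 bp downstream. The Oct-Sox match in that site stands only in a context found 10 or more times in the genome. Tdrd12 stood at 12.1, 28.0, 44.6, 27.4 and 33.8 FPKM in +/+, +/N, N/N, shLuc and shTbx3, lowest in +/+. The unnamed gene 1500012F01Rik stood at 52.8, 142, 199, 96.1 and 108 FPKM in that order, also lowest in +/+, and its site (134.8) held an octamer.

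Further genes with larger positive differences were Glod5 (1.55 FPKM in +/+ and 6.53 in N/N, 2 sites of 235 and 97.5), Fstl3, a secreted inhibitor of activin (3.17 and 9.85), and Ddit4, a stress-induced inhibitor of mTORC1 signalling (110.3 and 272, 2 sites upstream). The claudins of tight junctions Cldn3 (11.9 and 29.8) and Cldn4 (106 and 213) were also at least 2-fold higher in N/N. So were the gap junction gene Gja1 and the circadian repressor gene Bhlhe40 (40.6 and 89.0). The fibroblast and endoderm marker sums differ between these libraries as given above, and their part in these values was not tested.

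On the lower side Cobl, an actin nucleator, stood at 38.9, 18.8, 12.1, 19.9 and 15.045 FPKM in +/+, +/N, N/N, shLuc and shTbx3. The +/+ library was the highest. Foxd3, a forkhead factor of the pluripotent epiblast, stood at 15.9, 10.4, 5.94, 11.6 and 23.2 FPKM. It was lowest in N/N and highest in shTbx3, so the 2 pairs ran in opposite directions. Jam2, a junction adhesion molecule, stood at 19.4, 13.2, 7.71, 21.1 and 15.6 FPKM. The interferon-stimulated genes Oas1g (5.26 and 1.25 FPKM in +/+ and N/N) and Ddx58 (20.7 and 9.78) were lower, as were Itpk1 (63.8 and 29.1), the Wnt receptor gene Fzd5 (33.3 and 15.01) and Ankrd35 (5.79 and 2.11).

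The +/N library against +/+ gave 4 genes at least 2-fold higher and 4 lower of 669 (0.598% each), beside 0.43% and 0.704% of all 10931 coding genes. The higher genes were 1500012F01Rik, Gad1, Tdrd12 and Gja1, and the lower ones Oas1g, Ddx58, Itpk1 and Cobl. The median was -0.07 near the sites and -0.10 over all coding genes. With the median of well-expressed genes (5 FPKM) set to 0, a shift of -0.12, the counts became 9 higher and 2 lower, beside 0.613% and 0.576% of all coding genes. All 8 genes were also past 2-fold in N/N against +/+, but both comparisons use the 1 +/+ library. Gja1 stood at 26.3, 56.2 and 57.3 FPKM in +/+, +/N and N/N.

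N/N against +/N does not involve the +/+ library. Of 666 genes, Dppa3 alone was at least 2-fold higher (log2 1.37, 0.150% of genes) and 0 were lower, beside 0.0646% and 0.0184% of 10842 coding genes. At 1.5-fold there were 5 higher (0.751%) and 4 lower (0.601%), beside 0.59% and 0.387%. Prss8, a membrane-anchored serine protease (7.34 FPKM in +/N and 12.2 in N/N), and Tdrd12 followed with log2 differences of 0.67 and 0.65. Foxd3 (-0.72), Jam2 (-0.71) and Cobl (-0.59) had the lowest log2 differences among those reaching 5 FPKM.

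In shTbx3 against shLuc 664 genes were tested, with 26 (3.92%) at least 2-fold higher in shTbx3 and 7 (1.05%) lower. All 10962 coding genes gave 2.69% and 0.848%. Both medians were 0.14, and the whole comparison was shifted by 0.16. With that shift set to 0 the genes near sites gave 9 higher (1.36%) and 12 lower (1.81%), and all coding genes 1.82% and 1.36%. The larger share of higher genes near the sites thus turned with the scaling. Among genes with a site of score 100 or more 14 of 257 (5.45%) were higher and 1 (0.389%) lower before that step.

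Id3 had the largest positive difference. Its level was 33.7, 38.4, 29.8, 13.2 and 89.6 FPKM in +/+, +/N, N/N, shLuc and shTbx3, with a log2 difference of 2.68. The allele libraries stayed within a narrow range, between the hairpin libraries. Peg10, an imprinted gene derived from a retrotransposon, had an intronic site of score 82.4 lying 1733 bp downstream. It stood at 80.4, 143, 132, 34.5 and 164 FPKM in +/+, +/N, N/N, shLuc and shTbx3, lowest in shLuc. Peg3, also imprinted, stood at 13.03, 15.5, 16.05, 7.97 and 21.5 FPKM, with 2 sites in an intron near its start.

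Id2, a relative of Id3 that BMP signalling also induces, stood at 10.8, 11.3, 11.4, 12.2 and 32.4 FPKM, with shTbx3 alone high. Ctgf, a secreted matrix protein and target of Yap, stood at 104, 118, 122, 6.36 and 21.6 FPKM. Ctgf was far lower in both hairpin libraries than in the allele libraries. The fibroblast marker sum above was also lower in shLuc than in shTbx3, and its part in the Ctgf value was not tested. Lphn2 (4.35 FPKM in shLuc and 14.0 in shTbx3), Mycn (71.1 and 156) and Nes (5.21 and 14.4) were also at least 2-fold higher. So were Myh9, Ddr1, Wnt8a (0.194 and 2.83) and Prtg (1.11 and 5.35).

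Otx2, a homeobox factor of the primed epiblast, was on the lower side. It stood at 25.9, 33.4, 37.5, 29.4 and 11.2 FPKM in +/+, +/N, N/N, shLuc and shTbx3, with shTbx3 alone low. Its 2 sites lay downstream at 4488 bp (89.4, in an intron, with an octamer) and 12213 bp (211). Cd37, a tetraspanin of B cells, stood at 3.71, 4.93, 4.94, 6.95 and 1.30 FPKM. The B-cell marker sum was 65.8 FPKM in shLuc and 6.36 in shTbx3, and its part in the Cd37 value was not tested. Mcf2, 2410141K09Rik, Lrrc2 (8.46 FPKM in shLuc and 3.59 in shTbx3), the acetyltransferase gene Kat2b (13.6 and 6.16) and Pdcl2 were the other genes at least 2-fold lower.

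Set side by side, 6 genes near sites passed 2-fold in both N/N against +/+ and shTbx3 against shLuc, pairs that share no library. How many of all coding genes did so was not counted, so whether 6 is many was not tested. Gad1, an enzyme that makes the transmitter GABA, had log2 differences of 1.42 and 1.09. Gja1 had 1.09 and 1.01, Gm6792 1.26 and 1.14, and Prtg 1.14 and 1.59. Mcf2 was lower in both (-1.16 and -1.49). Epha2, an ephrin receptor, stood lower in N/N (-1.02) but higher in shTbx3 (1.03). Dppa3 was higher in both, but its 0.80 in the hairpin pair did not reach 2-fold.

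**Figure D5:**
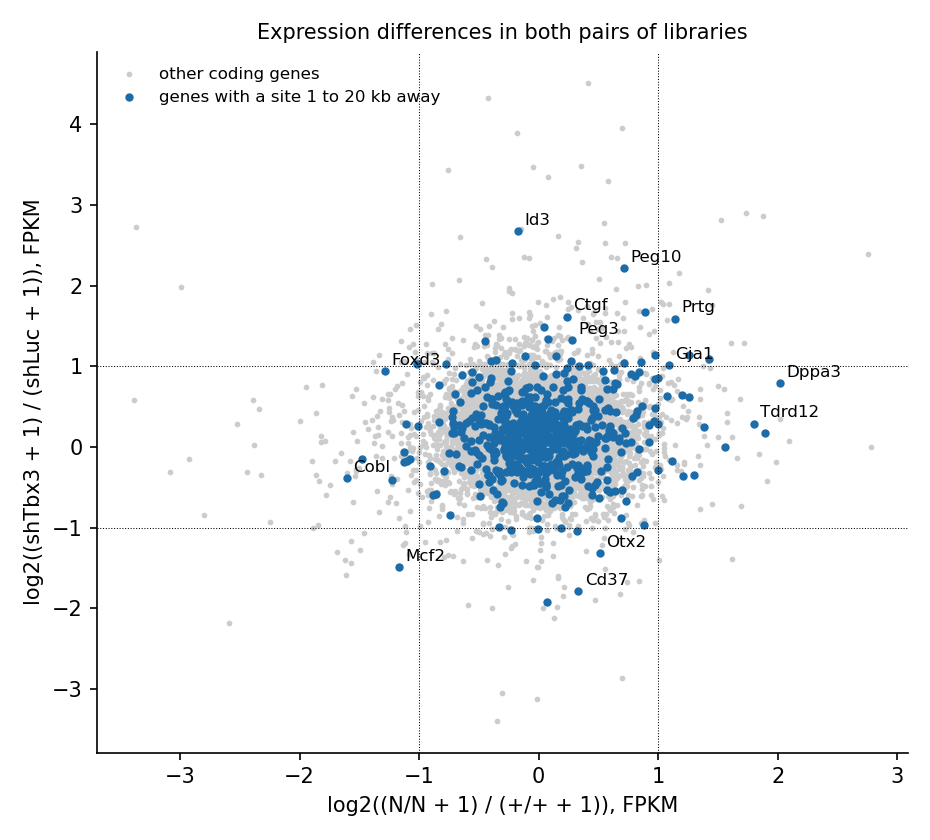
Log2((a + 1)/(b + 1)) of FPKM in N/N against +/+ (horizontal axis) and in shTbx3 against shLuc (vertical axis), 1 point per gene, with the genes near sites in blue and other coding genes in grey. Dotted lines mark 2-fold. Dppa3 lies furthest right among the blue points (2.02) and Id3 highest (2.68), and most blue points lie inside the central square.

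Gene lists for stem cell states and signalling pathways showed where the sites fell. Of 185 placed list genes, 50 (27.0%) had a site 1 to 20 kb from their start, against 4.01% of all coding genes and 7.98% of coding genes at 10 FPKM or more in +/+. Sites within 1 kb were also frequent there, at 21 of the 185 list genes against 579 of 22208 coding genes. The lists were chosen with earlier results of these data known. The core pluripotency list had 7 of 10 genes and 14 sites. Pou5f1, which encodes Oct4, had sites 2916 and 1586 bp upstream (105 and 163), the nearer with Oct-Sox and Klf matches. Dppa2 had sites 1216 bp upstream and 11967 bp downstream, Nanog 1 at 4585 bp, Sall4 1 at 1442 bp and Dppa5a 1 at 3243 bp upstream. None of the 7 differed by 2-fold in any of the 4 comparisons, in which at most 2.69% of all coding genes did so in either direction. Pou5f1 stood at 659.9, 540.4, 532, 959 and 1034 FPKM.

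The naive pluripotency list had 7 of 18 genes: Dppa3, Fgf4, Il6st, Klf2, Lifr, Nr5a2 and Socs3. Both subunits of the LIF receptor were among them. Il6st had a site of score 288 lying 12113 bp upstream, and Lifr had sites 13356 and 11095 bp upstream (163 and 58.7), the first with 2 octamers and a Stat match. Socs3, the feedback inhibitor of that pathway, had sites 2266 and 5336 bp upstream. Klf2, a Kruppel-like factor of naive cells, had 1 of score 253 lying 2602 bp upstream. Dppa3 was the 1 member past 2-fold, higher in N/N against +/+ and against +/N. Of all coding genes, 0.977% and 0.0646% were higher in these comparisons. Of the formative and primed list 3 of 11 had sites, Otx2 and Foxd3 among them.

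Among signalling genes, the Nodal and BMP list had 9 of 26. The secreted Nodal inhibitors Lefty1 (282, 9777 bp upstream) and Lefty2 (122, 3893 bp upstream, with Oct-Sox), the ligand Nodal (56.9), and the nuclear regulators Skil (2 sites), Tgif1 and Smad7 were joined by Id2, Id3 and Id4. Of the 9, Id2 and Id3 were at least 2-fold higher in shTbx3 and 0 were lower, beside 2.69% and 0.848% of all coding genes. Lefty1 stood at 57.1, 63.6, 72.9, 41.6 and 44.1 FPKM, with no 2-fold difference. The Wnt list had 6 of 22: the receptors Fzd5 and Fzd10, Lgr4, Porcn, which lipidates Wnt ligands, and the nuclear factors Lef1 and Tcf7l1. The site of Tcf7l1 lay 1376 bp downstream with a score of 272, and 437 bp from another transcript start of a coding gene. Fzd5 was at least 2-fold lower in N/N and Fzd10 (3.18 FPKM in shLuc and 7.79 in shTbx3) higher in shTbx3. Of all coding genes, 1.4% were lower in N/N against +/+ and 2.69% higher in shTbx3.

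The FGF and ERK list had 5 of 19. They were the ligands Fgf4 (101, 3045 bp upstream) and Fgf15 (245, 7075 bp upstream), Fgfr2 (259), Sos1 and Spred2. Fgfr2 was at least 2-fold higher in shTbx3 from a low level (1.26 and 3.71 FPKM), as were 2.69% of all coding genes. Of the Myc, cell cycle and p53 list 4 of 20 had sites, in Trp53 (204, in an intron, with an octamer), Cdkn1a (175, 9616 bp upstream), Ccnd3 and Mycn. The primitive streak and mesoderm list (12 genes), the endoderm list (13) and the T-box family (17) had none in this range. Sites within 1 kb of a start lay at 1, 0 and 3 genes of these lists, Tbx3 among the last.

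The chromatin list had 10 of 23, with 16 sites. All 3 Tet genes were among them, Tet3 with a site of score 358 at 19456 bp, Tet2 with sites of 207 and 68.7 and Tet1 with its 4. So were 3 subunits of Polycomb repressive complex PRC2, Suz12 (214, 13074 bp upstream), Ezh2 (76.7, 12958 bp upstream) and Eed (67.9, in an intron), and its partner Jarid2 with 2 sites upstream. Chd7 and the demethylase gene Kdm5b also had sites. None of the 10 passed 2-fold in any comparison, where at most 2.69% of all coding genes did so in either direction. Tet3 was below 1 FPKM in both hairpin libraries and not tested there. Chd7 came nearest, with a log2 difference of 0.95 in the hairpin pair (4.34 FPKM in shLuc and 9.29 in shTbx3). Its levels are past 2-fold without the added 1. Tet2 stood at 17.9, 15.3, 13.5, 18.8 and 12.8 FPKM, and Tet3 at 0.882 to 1.56 FPKM, so the Tet3 site of high score stood beside a low level.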

How the data were processed

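Per the submitters' processing notes, bulk RNA was processed on mm9 with TopHat, Cufflinks and Cuffdiff named as tools, without their roles, and the authors deposited FPKM values. The 11647 genes listed follow a filter that no source used here gives. For the single cells the same notes name TopHat and Cuffnorm, and the deposited FPKM values are in a separate table. Tbx3 peaks carry a deposited score. The notes name Bowtie 1.0 and HOMER, the peak names and lowest score are those of MACS, and no source used here says which tool made the score. Peaks come from 1 list, deposited for 1 tagged library. Other tool versions and read depths are not stated.

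Sites were placed on the GENCODE vM1 annotation of mm9 and given to the nearest coding gene start. Elements were read as exact matches on both strands of the interval and of flanks of equal width 2 kb away. Differences are log2((a + 1)/(b + 1)) with a pseudocount of 1 FPKM, which understates folds of low genes, for genes reaching 1 FPKM in either library, and were counted at 2-fold. Of the bulk names 11091 (95.2%) matched a coding gene; 18 are made of digits. Of the 890 member genes 65 were in neither table and 153 in the cell table only. Of the columns with per-sample values, 0 were left unmapped. Calculations ran in Python 3.11.15 with pandas 2.3.3, numpy 2.4.6 and matplotlib 3.10.9. The placement of sites and the 2-fold calls were tested on planted data. The element search and the remaining calculations were not tested in this way.

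The members and lists were chosen with earlier results of these data known. Named genes were those nearest the 10 highest scores, those with 3 or more sites, the 6 largest differences each way at 5 FPKM or more for N/N against +/+ and shTbx3 against shLuc and the 3 largest for the other 2 comparisons, list genes with a site, sites next to the distance limits, and Tbx3 and Dppa3; the other genes past 2-fold were named after their values were seen. Of the list genes with a site, 2 are not reported here. Alternatives changed the distance rule, score minimum, pseudocount, filter, fold, scaling, gene assignment and sequence window.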

Additional observations from a re-analysis of the deposited data

How the results depend on the processing

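Of 60 alternative values for whole sets of sites or genes, 39 kept their size. Sites numbered 629 within 10 kb and 359 at a score of 100 or more, against 1019. Genes with 2 or more sites numbered 193 when every coding start in range counted and 21 at a score of 100 or more, against 112. The T-box core was in 8.24% of central 200-base windows and in 6.08% of flanks 5 kb away. Requiring a context found fewer than 10 times, an alternative chosen after seeing the data, left 14.0% of sites and 7.26% of flanks.

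Counts of genes past 2-fold changed more. With a pseudocount of 5 they were 8 in N/N against +/+ (28 as reported), 1 in +/N against +/+ (8) and 10 in shTbx3 against shLuc (33). Higher and lower shares were 0.897% and 0.299% in N/N against +/+, beside 0.283% and 0.457% of all coding genes. In +/N against +/+ they were 0.149% and 0%, beside 0.110% and 0.274%. The hairpin pair gave 1.20% and 0.301%, beside 0.867% and 0.164%. With a pseudocount of 0.1 the counts were 18 in +/N against +/+ and 2 in N/N against +/N (1). Higher and lower shares were 1.64% and 1.05% in the first, beside 0.805% and 1.42% of all coding genes. In the second they were 0.150% each, beside 0.175% and 0.166%. At 1.5-fold the 4 comparisons gave 101, 50, 9 and 120. In N/N against +/+ 9.27% were higher and 5.83% lower, beside 4.87% and 5.82% of all coding genes. In +/N against +/+ these shares were 4.33% and 3.14%, beside 1.83% and 4.31%. The hairpin pair gave 13.7% and 4.37%, beside 12.7% and 3.48%, and the shares of N/N against +/N are given above. Sites of score 100 or more gave 13, 3 and 15 in the 3 comparisons with controls. For the 3 in +/N against +/+ the shares were 1.16% higher and 0% lower, and those of the other pairs are given above. Counting every start in range gave 13 in +/N against +/+ (0.520% higher and 0.607% lower) and 57 in the hairpin pair (4.09% and 0.871%). All coding genes gave 0.43% and 0.704% in +/N against +/+, and 2.69% and 0.848% in the hairpin pair. Setting the median to 0 gave 21 in the hairpin pair, with the shares given above. These counts follow from fewer or more genes passing a moved threshold or entering the count. Of 1068 alternative values for single genes, 1023 stayed on their side of 2-fold, 32 fell below it, 13 passed it and 0 changed direction.

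No paired analysis was possible because each group had 1 library, and no library was left out for the same reason. Depth is unknown, and low FPKM values are the least certain.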

Other observations

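In the 45 single cells, genes near several sites were detected in more cells. Of the 890 genes 825 were in the single-cell table, and the median gene was at 1 FPKM or more in 4 cells, against 0 for all 20199 coding genes listed. The median was 4 cells for genes with 1 site, 7 for genes with 2 and 21.5 for the 12 listed genes with 3 or 4. In no cell were 26.1% of the genes near sites, against 51.1% of all coding genes. Bulk levels ran in the same order over these groups, and the part of level in detection was not tested.

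Single genes ranged widely. Jarid2, Kdm5b, Skil, Sall4 and Dppa5a were at 1 FPKM or more in 45 of 45 cells, Ncoa3, Lgr4 and Tet2 in 44, Utf1 in 40, Tet1 and Klf13 in 37 and Sox2 in 35. Pou5f1, among the highest of these genes in bulk, was detected in 11 of 45 cells and Nanog in 12, while the stem cell marker Zfp42, which has no such site, was detected in all 45. A gene not detected in a cell may still be expressed there, and how often transcripts were missed was not tested. Id3 was detected in 9 cells, Otx2 in 6 and Ddit4, at 71.2 to 272 FPKM in bulk, in 2. Dppa3 was detected in 10 cells and reached 1036 FPKM in 1 of them. The cell and bulk values stand in separate tables with no stated common scale, so only the order within each can be read.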
